A study of Mus musculus with 10 samples.

Results

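The lysosomal genes described here, called members below, were 49 genes taken from a table of 55414 genes of mouse splenic macrophages. They were chosen by name for what they encode, not by a rule on their values, but with earlier results of these data known. They comprised 10 cathepsins and other peptidases, 13 glycan hydrolases, 7 lipid hydrolases, activators and lipid carriers, 6 membrane proteins and progranulin, which made a group of 7, and 12 genes of the V-ATPase, the proton pump of the lysosome. None of the 49 passed a false discovery rate of 0.05 between macrophages lacking Fpr2 and wild-type macrophages, and for 47 of the 48 that could be tested the 95% interval of the difference lay within 1.5-fold in either direction. The largest estimates of the 48 were those of Lipa, the lysosomal acid lipase, and Gla, alpha-galactosidase A, at -0.26 and -0.25 on the log2 scale, lower in Fpr2KO. The difference of Gla rested on 1 wild-type library.

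Macrophages were taken from spleens with magnetic beads against F4/80, and polyadenylated RNA was sequenced in 10 libraries. The Fpr2KO group held 5 libraries of the genotype that the labels call Fpr2KO and the series text Fpr2-/-. The WT group held 5 libraries of the genotype that the labels call C57BL/6N. The labels name no treatment for either group. The sources used here do not state the strain background of the knockout, how the allele was made, or the age, sex and number of animals behind a library. Since nothing says that the 5 libraries of a group came from separate animals, p-values measure the spread between these libraries, which may be technical. Fpr2, formyl peptide receptor 2, sits on myeloid cells and senses formylated peptides and a range of other ligands.

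Lysosomes are the acidic compartments in which cells break down proteins, glycans and lipids delivered by phagocytosis, endocytosis and autophagy. The V-ATPase acidifies the lumen, soluble hydrolases digest the cargo, and membrane proteins and carriers protect the limiting membrane and move the products out. Splenic red pulp macrophages clear aged red blood cells through this route, and the transcription factors TFEB, TFE3 and MITF are known to drive many lysosomal genes through a promoter element whose core is CACGTG.

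Each library held between 15865820 and 19060188 counts, and the test covered 14669 genes that passed the filter on low counts. Fpr2 had 0 reads over the 5 Fpr2KO libraries, against 1983 reads over the 5 WT libraries, where its level was 19.2 to 33.6 CPM (counts scaled to a common library size). Adgre1, which encodes F4/80, was measured at 419 to 575 CPM in Fpr2KO and 472 to 602 CPM in WT. The summed level of 12 red pulp macrophage markers was 8856 to 11216 CPM in Fpr2KO, against 8710.0 to 11473 CPM in WT, so that the ranges overlapped. Marker lists of other cells are given by the range of their sums and the direction of their estimates, and none of these markers passed an FDR of 0.05 by edgeR. The 8 markers of classical monocytes, all with a lower estimate, summed to 673 to 926 CPM in Fpr2KO, against 938 to 1459 CPM in WT. The 13 neutrophil markers tested, of 14 listed, also all had a lower estimate, and the list summed to 536 to 995 CPM in Fpr2KO, against 943 to 1567 CPM in WT. The 10 erythroid markers all had a higher estimate, and summed to 4159 to 10072 CPM in Fpr2KO, against 1537 to 6073 CPM in WT. The 6 markers of nonclassical monocytes all had a lower estimate, with sums of 1542 to 2394 CPM in Fpr2KO, against 2004 to 2714 CPM in WT. The 7 B cell markers all had a higher one, with sums of 2871 to 3836 CPM in Fpr2KO, against 2201 to 3344 CPM in WT. Of these sums, only those of classical monocytes did not overlap between the genotypes. No marker of these lists was at 0 reads. At an unadjusted p under 0.05 (edgeR), 10 of 10 erythroid and 3 of 7 B cell markers were higher, against 4.88% of all genes. Lower at that p were 6 of 8 classical monocyte, 2 of 6 nonclassical monocyte and 8 of 13 neutrophil markers, against 4.92% of all genes. The 4 platelet and megakaryocyte markers tested and the 5 basophil and mast cell markers also all had a lower estimate. Monocytes and neutrophils also express lysosomal genes, and the part of these cells in the values below was not tested, nor was that of erythroid cells. In bulk RNA of this kind, fewer cells of a type and less RNA per cell cannot be told apart.

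Promoter sequences were examined because the CACGTG element is the feature that many lysosomal genes are known to share. RefSeq promoters on GRCm38.p6, covering 250 bases before to 50 bases after the gene start, were found for 40 of the 49 genes, that is for all but Ctsb, Ctsh, Galns, Asah1, Npc1, Atp6v0d2, Atp6v1b2, Atp6v1c1 and Atp6v1h. The core CACGTG, which is its own reverse complement, lay in a window of 14 of the 40 genes (35%), against 2187 of all 27025 genes in the RefSeq table (8.09%). The longer form TCACGTG, searched on both strands and overlapping the core by construction, lay in 13 of the 40 (32.5%), against 4.29% of all genes. The full palindrome of the CLEAR element was found in 0 of the 40, against 0.37% of all genes. Of the 91 other lysosomal genes described below, 73 had a promoter in the RefSeq table. The core lay in 15 of the 73 (20.5%), TCACGTG in 14 (19.2%) and the full palindrome in 2 (2.74%). The windows below show the element with its flanks, with the core CACGTG in capitals. A window is shown only where element and flanks together lie outside annotated exons, so a member with only a flank in an exon is missing. Those shown belong to 1 aspartic protease, 1 asparaginyl endopeptidase, 2 glycan hydrolases, 1 membrane protein and 1 pump subunit. Each is written 5' to 3' on the strand of its gene.

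Ctsd (chr7:142388053-142388077, minus strand): tccccCACGTGacctgtatccagtc
Lgmn (chr12:102439122-102439155, minus strand): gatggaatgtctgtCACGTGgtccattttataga
Gaa (chr11:119267809-119267842, plus strand): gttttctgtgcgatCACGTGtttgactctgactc
Glb1 (chr9:114401016-114401049, plus strand): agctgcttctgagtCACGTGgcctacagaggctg
Lamp1 (chr8:13159086-13159160, plus strand): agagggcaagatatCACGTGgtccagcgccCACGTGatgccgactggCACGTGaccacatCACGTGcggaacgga
Atp6v1a (chr16:44139371-44139404, minus strand): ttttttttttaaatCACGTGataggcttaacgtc

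The Lamp1 window stood apart from the rest in that it held 4 copies, which began 61, 45, 28 and 15 bases before the start. The copy nearest to a start among the others shown began 48 bases before that of Glb1, and the farthest 245 bases before that of Ctsd. A match in these letters is a description of the sequence and says nothing of binding. The 13 members with TCACGTG had a median log2 fold change of -0.05 between Fpr2KO and WT, with 9 of 13 estimates lower in Fpr2KO. The 27 members whose promoter lacked it had a median of -0.03, with 18 of 27 lower.

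Between the genotypes, the 48 lysosomal genes tested lay close to the centre of all genes. By edgeR's quasi-likelihood test with Benjamini-Hochberg adjustment over all genes tested, 0 of 48 were higher and 0 of 48 were lower in Fpr2KO at an FDR of 0.05, against 0.00682% and 0.0614% of all genes. At an unadjusted p under 0.05, 0 were higher, against 4.88% of all genes, and 1 was lower (2.08%), against 4.92% of all genes. For no member did the 5 Fpr2KO libraries lie all below the 5 WT libraries, which happened for 0.566% of all genes, or all above them, which happened for 0.825%. The median log2 fold change of the members was -0.05, with a range of -0.26 to 0.12, and the median of all genes was 0.01. The estimate was lower in Fpr2KO for 35 of 48 (72.9%), against 46.8% of all genes, and higher for 13. With upper-quartile scaling the lower estimates were 30, against 41.8% of all genes, and without Fpr2KO 4 they were 29, against 46.3%. Genes of the same libraries are not independent, so this split carries no test of its own.

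The intervals were narrow. The median standard error of a log2 fold change was 0.09 over the members and 0.13 over all genes. The 95% interval lay within 1.5-fold in either direction for 47 of 48 members (97.9%), against 67.5% of all genes. Lysosomal genes were abundant, and among the 2802 genes whose mean log2 CPM lay between the lower and upper quartile of the members, 6.13 and 8.47, the share was 92.9%, and 23 of the 24 members in that range had such an interval. Differences smaller than the intervals were not detectable given the spread between these libraries, 5 in each group.

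**Figure D1:**
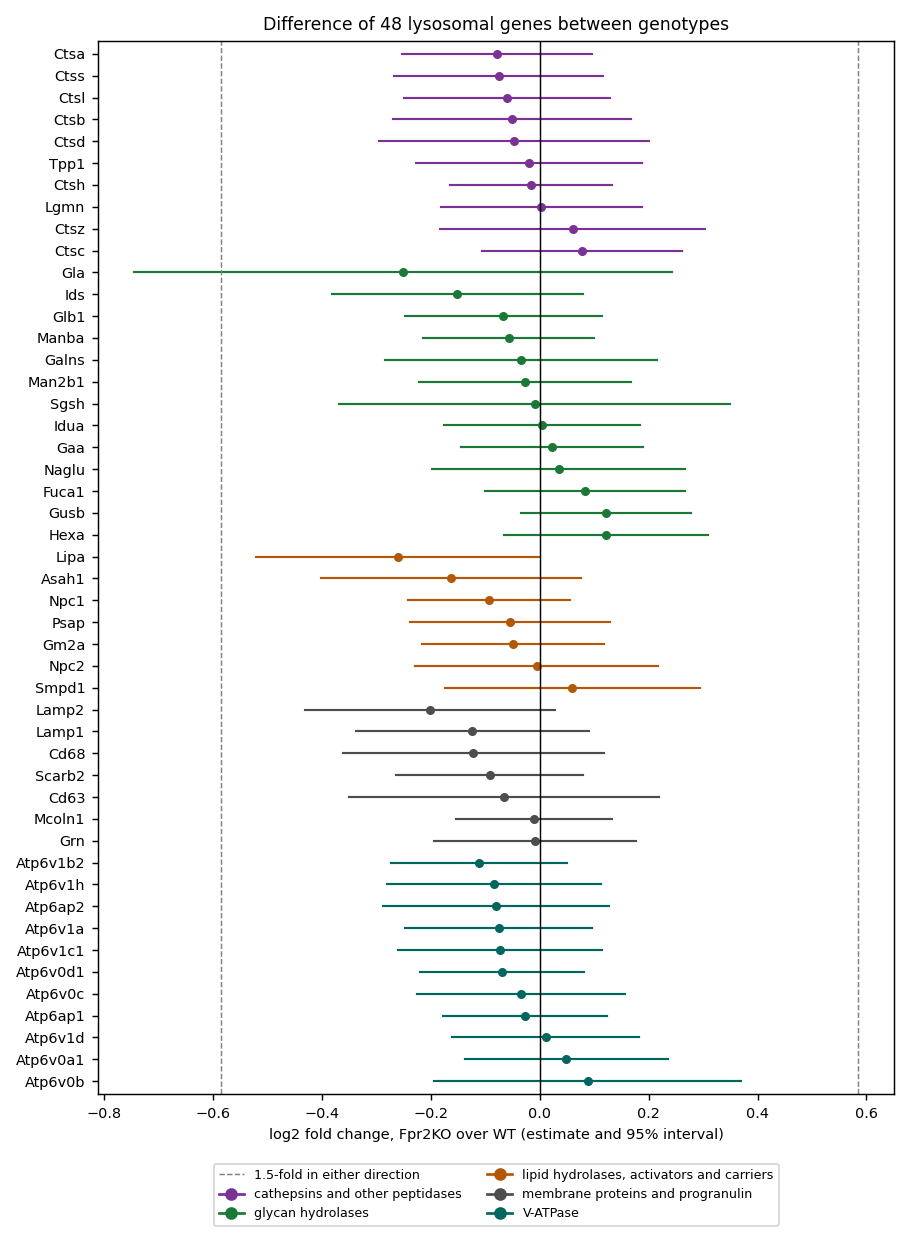
Log2 fold change of the 48 lysosomal genes tested, Fpr2KO over WT, on the x axis, with points for the edgeR estimate and lines for its 95% interval, 1 gene per row, coloured by role. All estimates lie between -0.26 and 0.12, and only the line of Gla crosses a dashed line at 1.5-fold.

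Levels differed far more between the genes than between the genotypes. Per kb of annotated exon, the highest was Psap, the precursor of the saposins that present sphingolipids to their hydrolases, at 1632 ± 129 CPM per kb in Fpr2KO and 1696 ± 131 CPM per kb in WT (SD, n = 5 each). Ctss, a cysteine protease that trims the invariant chain of MHC class II, followed at 695 ± 75.6 CPM per kb in Fpr2KO and 733 ± 47.5 CPM per kb in WT. Ctsb, another cysteine protease, came next at 442 ± 49.6 CPM per kb in Fpr2KO and 458 ± 48.5 CPM per kb in WT. These 3 kept their places when levels were taken per kb of the principal transcript. Below them, Cd68, Ctsd, Ctsz and Lamp1 averaged 252, 243, 240.4 and 237 CPM per kb in WT and did not differ beyond the spread between libraries. At the other end of the genes tested stood Smpd1, the acid sphingomyelinase, at 6.72 ± 0.691 CPM per kb in Fpr2KO and 6.45 ± 0.882 CPM per kb in WT. Manba, beta-mannosidase, had 5.18 ± 0.284 CPM per kb in Fpr2KO and 5.39 ± 0.304 CPM per kb in WT. Atp6v0d2, the pump's alternative d subunit, known from osteoclasts, had 0.124 ± 0.0569 CPM per kb in Fpr2KO and 0.0811 ± 0.0464 CPM per kb in WT, and was left out of the test for low counts. The order at this end depended on the length used: per kb of the principal transcript the lowest gene tested was Sgsh, heparan sulfamidase, at 7.94 CPM per kb in WT, followed by Smpd1 at 8.92, while Manba had 10.2 CPM per kb. The 49 genes together took 1.61 to 1.93% of the counts of an Fpr2KO library and 1.61 to 1.86% of those of a WT library.

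**Figure D2:**
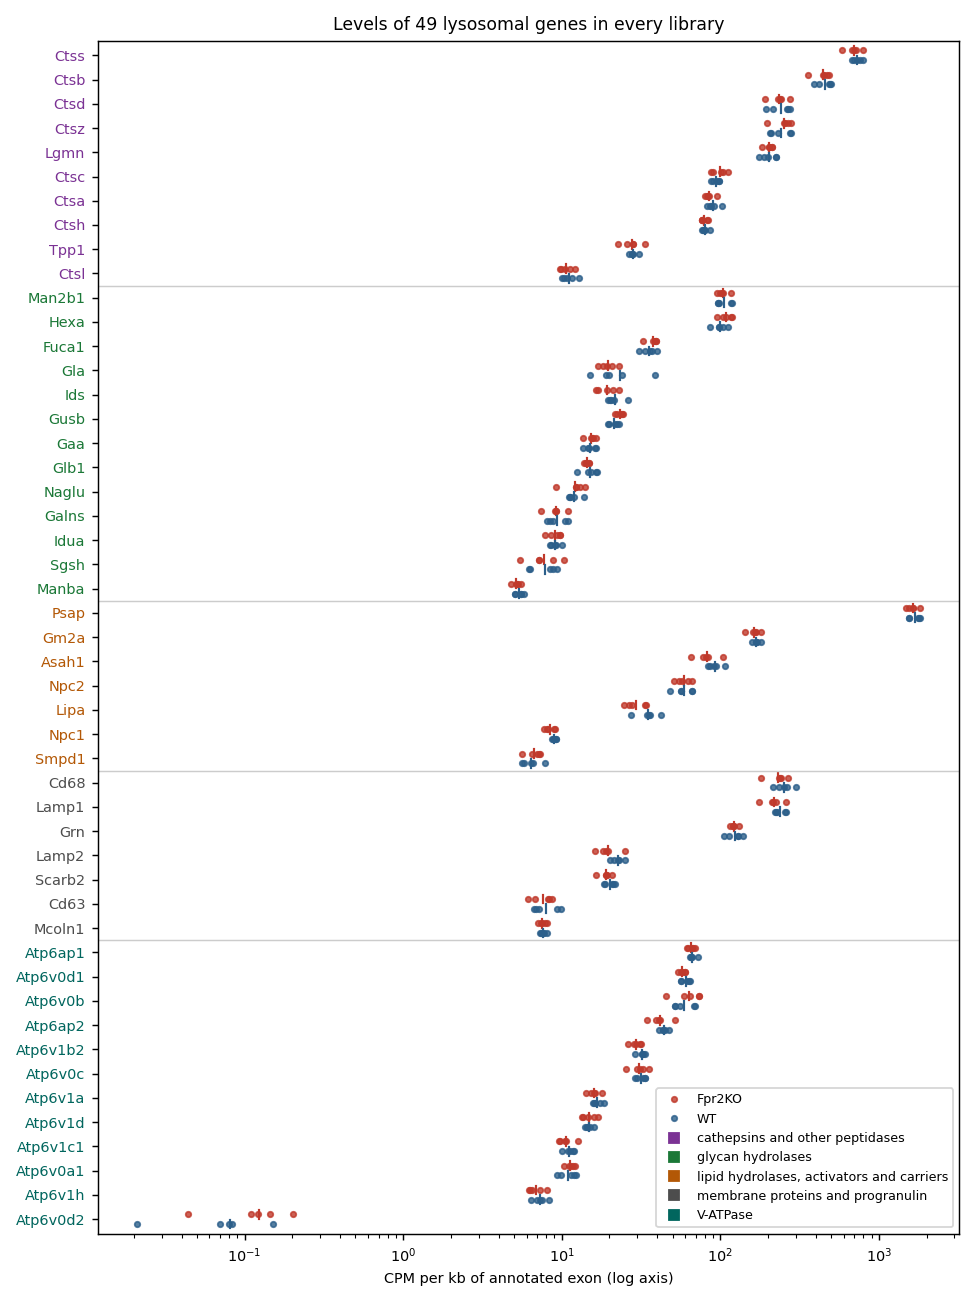
CPM per kb of annotated exon (log axis) of the 49 genes, grouped and coloured by role, with 1 point per library and a short line at the mean of each group, Fpr2KO (n = 5) above WT (n = 5) in each row. The genotypes overlap in every row, while levels run from 1632 CPM per kb in Fpr2KO for Psap to 0.124 CPM per kb in Fpr2KO for Atp6v0d2.

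Among the 10 peptidases, 7 estimates were lower and 3 were higher in Fpr2KO, with a median log2 fold change of -0.03, which ran from -0.07 without WT 1 to 0.02 without Fpr2KO 4. Ctss had 1083, 951, 969, 797 and 921 CPM in the Fpr2KO libraries, against 949, 992, 1084, 1029 and 920.4 CPM in the WT libraries. The groups overlapped, with Fpr2KO 4 the lowest of the 10, and the log2 fold change was -0.08 ± 0.09 (SE; FDR 0.803, edgeR). Ctsb had 2841, 2943, 2698, 2168 and 2724 CPM in Fpr2KO, against 2376, 2972, 3032, 2934 and 2540.3 CPM in WT. The lowest library was again Fpr2KO 4, followed by WT 1, and the log2 fold change was -0.05 ± 0.10 (SE; FDR 0.894, edgeR). Ctsd, the main aspartic protease of the lysosome, had 647, 558, 542, 449.7 and 565 CPM in Fpr2KO, against 503, 625, 618, 647 and 458 CPM in WT. Fpr2KO 4 and WT 5 were the lowest, and the log2 fold change was -0.05 ± 0.12 (SE; FDR 0.915, edgeR). The directions of Ctsb and Ctsd turned when Fpr2KO 4 was left out, to 0.02 for each. Ctsz, a cysteine carboxypeptidase, had 399.7, 286, 365, 370.2 and 385 CPM in Fpr2KO, against 296, 302, 397, 403 and 335 CPM in WT. Here Fpr2KO 2, WT 1 and WT 2 were low together, and the log2 fold change was 0.06 ± 0.11 (SE; FDR 0.887, edgeR).

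The other peptidases were Lgmn, the asparaginyl endopeptidase that processes cathepsins, at 0.003, Ctsc, the dipeptidyl peptidase that activates granule serine proteases, at 0.08, and Ctsa, a serine carboxypeptidase that also stabilises beta-galactosidase and neuraminidase, at -0.08. Ctsh, an aminopeptidase, Ctsl, a cysteine endopeptidase, and Tpp1, a tripeptidyl peptidase, had log2 fold changes of -0.02, -0.06 and -0.02. The lowest FDR of these 6 was 0.770, that of Ctsa (edgeR). Some counts may include reads of neighbours or copies, or may lack reads that matched more than 1 gene. Of the 31-base sequences of Ctsd, 33.2% also occur in Gm49369, which overlaps it on the same strand. Of those of Ctsl 28.2%, and of those of Ctsb 13%, occur in another gene. Which way the counts and levels of these genes are affected is not known from these sources.

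The 13 glycan hydrolases, which remove sugars or sulfates from glycoproteins, glycolipids, glycogen and glycosaminoglycans, were split into 7 lower and 6 higher, with a median log2 fold change of -0.01. This median was 0.01 with upper-quartile scaling and -0.06 with offsets for GC content, where 10 of 13 were lower. Gusb, beta-glucuronidase, had 110.3, 97.9, 108, 109 and 102 CPM in Fpr2KO, against 90.2, 89.4, 102, 98.4 and 105 CPM in WT. Fpr2KO 1, 3 and 4 lay above every WT library and the other Fpr2KO libraries within the WT range, and the log2 fold change was 0.12 ± 0.07 (SE; FDR 0.613, edgeR). Hexa, the alpha subunit of beta-hexosaminidase, had 237, 191, 217, 206 and 233 CPM in Fpr2KO, against 173, 195, 208, 223 and 197 CPM in WT. Fpr2KO 1 and 5 were the highest and WT 1 the lowest, and the log2 fold change was 0.12 ± 0.09 (SE; FDR 0.668, edgeR). Fuca1, alpha-fucosidase, had 127, 107, 124, 129 and 129 CPM in Fpr2KO, against 110.1, 101, 118, 131 and 121 CPM in WT. Fpr2KO 2 and WT 2 were the lowest of their groups, and the log2 fold change was 0.08 ± 0.09 (SE; FDR 0.768, edgeR).

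Ids, the iduronate sulfatase that starts the breakdown of heparan and dermatan sulfate, had 83.7, 118, 98.9, 86.5 and 108 CPM in Fpr2KO, against 109, 133, 102, 99.99 and 105 CPM in WT. Fpr2KO 1, 3 and 4 were lower than every WT library, Fpr2KO 2 and WT 2 stood highest in their groups, and the log2 fold change was -0.15 ± 0.11 (SE; FDR 0.665, edgeR). Gla, the alpha-galactosidase of globotriaosylceramide, which lies at chrX:134588149-134601125 on the minus strand in GRCm38, had 75.3, 59.5, 67.6, 55.1 and 62.8 CPM in Fpr2KO, against 127, 77.9, 64.9, 49.1 and 62.4 CPM in WT. WT 1 was the highest and WT 4 the lowest of all 10 libraries, and the log2 fold change was -0.25 with a 95% interval of -0.74 to 0.24 (FDR 0.727, edgeR). Without WT 1 the estimate was 0.003, so the difference of Gla rested on that library. Manba had 33.2, 36.9, 35.7, 36.2 and 38.6 CPM in Fpr2KO, against 38.5, 38.6, 40.1, 35.2 and 35.5 CPM in WT, which overlapped with a log2 fold change of -0.06. The other 7 lay between -0.07 for Glb1, beta-galactosidase, and 0.03 for Naglu, which acts on heparan sulfate. Between them were Man2b1, lysosomal alpha-mannosidase, at -0.03, Gaa, the acid alpha-glucosidase of glycogen, at 0.02, Galns, a sulfatase of keratan sulfate, at -0.03, Idua, alpha-iduronidase, at 0.004, and Sgsh, heparan sulfamidase, at -0.009. Of Sgsh, 19.9% of the 31-base sequences occur in Card14, and of Hexa 11.4% in Tmem202.

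Of the 7 genes of lipid breakdown and transport, 6 had a lower and 1 a higher estimate, with a median log2 fold change of -0.05, which ran from -0.10 without Fpr2KO 5 to -0.03 without WT 4. Lipa, which releases cholesterol and fatty acids from the neutral lipids of engulfed material and lies at chr19:34492318-34527474 on the minus strand in GRCm38, had 179, 228, 188, 168 and 232 CPM in Fpr2KO, against 241, 288, 246, 235 and 184 CPM in WT. Of the WT libraries, 4 lay above every Fpr2KO library, while WT 5 lay among them. The means were 199 ± 29.1 CPM in Fpr2KO and 239 ± 37 CPM in WT (SD, n = 5 each). The log2 fold change was -0.26 ± 0.12 (SE), with an unadjusted p of 0.0498 and an FDR of 0.509 by edgeR. Lipa was the only member at an unadjusted p under 0.05, a share below that of all genes given above.

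Asah1, the acid ceramidase, had 263, 350.2, 285, 223 and 276 CPM in Fpr2KO, against 309, 362, 319, 283 and 291 CPM in WT. Fpr2KO 1, 4 and 5 were lower than every WT library and Fpr2KO 2 was exceeded only by WT 2, and the log2 fold change was -0.16 ± 0.11 (SE; FDR 0.656, edgeR). Npc1, the membrane protein that exports cholesterol from the lysosome, had 87.1, 91.3, 102, 93.4 and 101 CPM in Fpr2KO, against 101, 105, 104, 98.3 and 99.0 CPM in WT. Fpr2KO 1, 2 and 4 lay below the WT range, and the log2 fold change was -0.09 ± 0.07 (SE; FDR 0.678, edgeR). Psap had 4515, 4075, 4539.9, 4256 and 5009 CPM in Fpr2KO, against 4254, 4888, 4845, 5000.5 and 4276 CPM in WT. Both its highest and its lowest library were Fpr2KO libraries, and the log2 fold change was -0.05 ± 0.09 (SE; FDR 0.859, edgeR). Smpd1 had 24.0, 18.8, 21.6, 24.5 and 23.2 CPM in Fpr2KO, against 18.8, 19.3, 26.2, 21.4 and 21.9 CPM in WT, which overlapped with a log2 fold change of 0.06. Gm2a, the activator protein that presents ganglioside to beta-hexosaminidase, and Npc2, the soluble cholesterol carrier that hands over to Npc1, had log2 fold changes of -0.05 and -0.006.

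The 6 membrane proteins and progranulin all had a lower estimate in Fpr2KO, 7 of 7, or 5 of 7 with upper-quartile scaling. Their median log2 fold change was -0.09, and none passed the FDR. The median was -0.14 without Fpr2KO 2, -0.04 without Fpr2KO 4 and -0.05 without WT 2. Lamp2, which with Lamp1 makes up much of the glycoprotein coat of the lysosomal membrane and also serves autophagy, lies at chrX:38401357-38456454 on the minus strand in GRCm38. It had 186, 238, 181, 155 and 174 CPM in Fpr2KO, against 215, 241, 221, 192 and 205 CPM in WT. Of the Fpr2KO libraries, 4 lay below every WT library, whereas Fpr2KO 2 was exceeded only by WT 2. The means were 187 ± 31 CPM in Fpr2KO and 215 ± 18 CPM in WT (SD, n = 5 each), and the log2 fold change was -0.20 ± 0.11 (SE; FDR 0.561, edgeR). Lamp1, whose promoter carries the 4 elements shown above, had 601, 694, 579, 472 and 568 CPM in Fpr2KO, against 597, 684, 690.3, 611 and 592 CPM in WT. Fpr2KO 3, 4 and 5 lay below the WT range and Fpr2KO 2 was the highest of the 10, and the log2 fold change was -0.12 ± 0.10 (SE; FDR 0.703, edgeR).

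Cd68, a heavily glycosylated relative of the LAMPs that is used as a macrophage marker, had 299, 335, 294, 227 and 303 CPM in Fpr2KO, against 315, 378, 330.0, 294 and 269 CPM in WT. Fpr2KO 4 was the lowest and WT 2 the highest, and the log2 fold change was -0.12 ± 0.11 (SE; FDR 0.735, edgeR). Scarb2, the receptor that carries glucocerebrosidase to the lysosome, had 119.7, 131, 119.7, 104 and 121 CPM in Fpr2KO, against 117, 132, 137, 131 and 118 CPM in WT. Fpr2KO 4 was again the lowest, the other Fpr2KO libraries lay within the WT range, and the log2 fold change was -0.09 ± 0.08 (SE; FDR 0.721, edgeR). Cd63, a tetraspanin of late endosomes, had a log2 fold change of -0.07, with 15.9% of its 31-base sequences shared with Cd63-ps. Mcoln1, the calcium channel of the lysosomal membrane, was at -0.01, and Grn, which encodes progranulin, a secreted glycoprotein also delivered to lysosomes, was at -0.009.

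The V-ATPase consists of a V1 sector, which splits ATP in the cytosol, and a V0 sector, which carries protons through the membrane. Of its 11 genes tested, 8 had a lower and 3 a higher estimate, with a median log2 fold change of -0.07, which was -0.04 without Fpr2KO 4, WT 2 or WT 4 and -0.03 with offsets for GC content. In the V1 sector, Atp6v1b2, the B subunit of most tissues, had 152, 166, 156, 139.9 and 169 CPM in Fpr2KO, against 155, 178, 174, 169.7 and 169 CPM in WT. Fpr2KO 1 and 4 lay below the WT range, and the log2 fold change was -0.11 ± 0.08 (SE; FDR 0.656, edgeR). Atp6v1h, the regulatory H subunit, had 71.1, 78.3, 63.2, 60.9 and 61.3 CPM in Fpr2KO, against 72.8, 80.7, 62.1, 71.3 and 68.0 CPM in WT, which overlapped with a log2 fold change of -0.08. The catalytic subunit Atp6v1a and the stalk subunits Atp6v1c1 and Atp6v1d were at -0.08, -0.07 and 0.01.

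In the V0 sector, Atp6v0d1, the d subunit of most tissues, had 103, 107, 97.7, 102 and 108 CPM in Fpr2KO, against 102, 114, 111, 116 and 101 CPM in WT. Fpr2KO 3 was the lowest library, and the log2 fold change was -0.07 ± 0.07 (SE; FDR 0.762, edgeR). Its alternative Atp6v0d2 had 0.390, 0.546, 0.119, 0.328 and 0.297 CPM in Fpr2KO, against 0.191, 0.216, 0.410, 0.0571 and 0.227 CPM in WT, from 29 reads in all in Fpr2KO and 19 reads in WT. At these counts no difference could be read. The proteolipid genes Atp6v0b and Atp6v0c, which form the rotating ring, were at 0.09 and -0.03, with 11.9% of the 31-base sequences of Atp6v0c shared with Atp6v0c-ps2. The a subunit Atp6v0a1 was at 0.05, and the accessory subunits Atp6ap1 and Atp6ap2 were at -0.03 and -0.08.

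The same libraries recurred at the ends of the distributions. Fpr2KO 4 was the lowest of its group for 24 of the 48 members and the highest for 4. Fpr2KO 2 was at both ends, the highest of its group for 16 members and the lowest for 15. In WT, WT 3 was the highest for 16 members and WT 1 the lowest for 19. The red pulp macrophage marker sums were the lowest of each group in Fpr2KO 4 and WT 1, at 8856 and 8710.0 CPM. They were 11183 CPM in Fpr2KO 2 and 11445 CPM in WT 3. The part of macrophage content in the members' values was not tested. In Fpr2KO 2, which end a gene took went with its base composition. The 16 members for which Fpr2KO 2 was the highest, Lamp2, Asah1, Ids and Atp6ap2 among them, had a median GC content of 45.8% in the principal transcript, the isoform that the annotation ranks first, whereas the 15 for which it was the lowest, among them Naglu, Sgsh, Gaa and Ctsz, had a median of 55.7%.

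**Figure D3:**
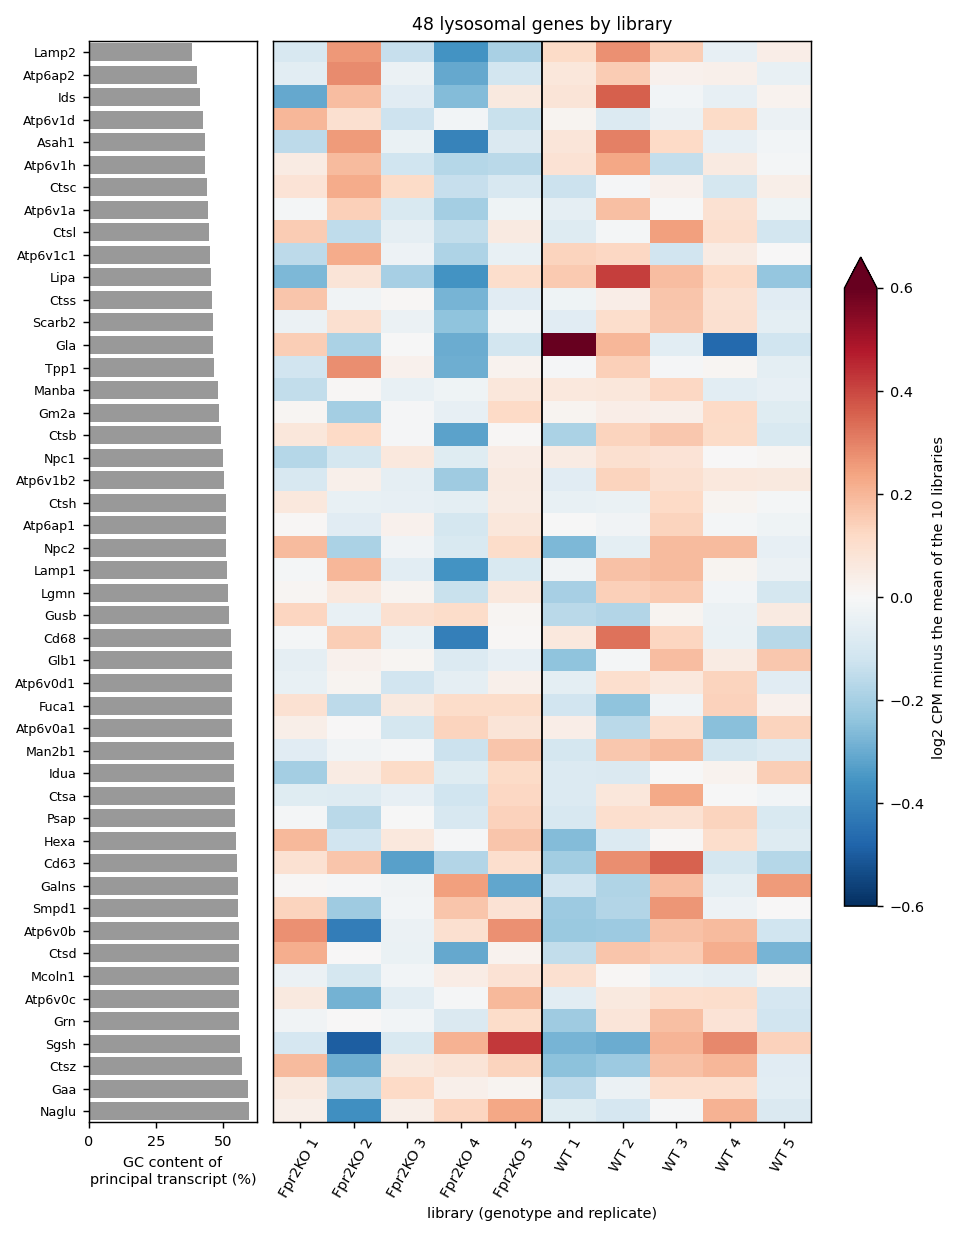
Log2 CPM of each of the 48 genes tested minus its mean over the 10 libraries (colour), with libraries in columns, Fpr2KO left of WT, and genes in rows by the GC content of the principal transcript (bars, left). Fpr2KO 2 is high in the upper rows and low in the bottom rows, and Fpr2KO 4 is low in the upper rows. Gla in WT 1 lies beyond the end of the colour scale.

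Over the 48 genes, Spearman's rho between the deviation of a library and GC content was 0.14, -0.69, -0.07, 0.60 and 0.49 in Fpr2KO 1 to 5, and -0.55, -0.46, 0.49, 0.39 and 0.13 in WT 1 to 5. Each deviation was taken from the mean of the library's own genotype. The deviations of a gene thus cancel within a group, and both signs follow from that by construction. The strongest rho was that of Fpr2KO 2. The same quantity over all genes was -0.61 in Fpr2KO 2, with values from -0.33 to 0.33 in the other 9 libraries. These are descriptions across genes that share libraries and depth. Fpr2KO 2 also had the highest mitochondrial share of counts in its group, at 6.04%, against 3.22 to 3.99% in the other Fpr2KO libraries and 4.83 to 6.09% in WT.

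The fold changes of the members followed base composition as well. Between log2 fold change and GC content rho was 0.56 over the 48 members and 0.24 over 14623 genes. Of the 24 members with the lower GC content, 22 had a lower estimate in Fpr2KO, with a median log2 fold change of -0.08. Of the 24 with the higher GC content, 13 had one, with a median of -0.01. All genes, split at the median GC content of the members, had medians of -0.02 below it and 0.06 above it. With offsets for GC content in each library, a setting added after the data had been seen, rho over the members became 0.06 and the medians -0.04 and -0.06 for low and high GC. The offsets were taken from the GC trend of these same libraries, so a smaller rho follows by construction. The overall picture of small differences then held, with 0 members at an FDR of 0.05, a median log2 fold change of -0.05 and 37 lower estimates. Lamp2 took the place of Lipa as the only member lower in Fpr2KO at an unadjusted p under 0.05, against 6.12% of all genes, at -0.15 ± 0.07 (SE; FDR 0.421, edgeR).

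**Figure D4:**
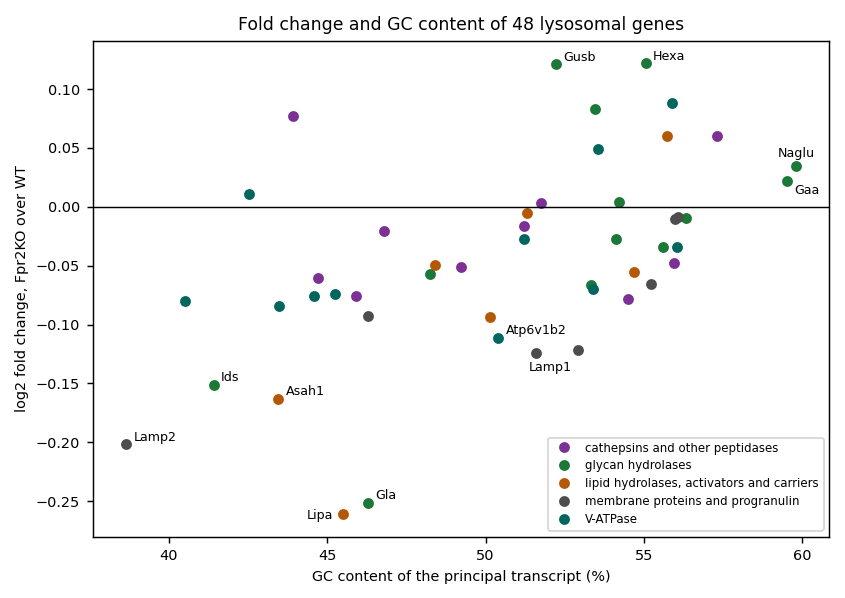
Log2 fold change, Fpr2KO over WT (y axis), against the GC content of the principal transcript in percent (x axis) for the 48 genes tested, coloured by role, 1 point per gene. Low points such as Lipa, Gla, Lamp2, Asah1 and Ids lie at GC contents of 46.3% or less, and Gusb and Hexa are the highest.

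Without Fpr2KO 2, 6 of the 48 members (12.5%) were lower in Fpr2KO at an unadjusted p under 0.05, against 8.14% of all genes in that fit. They were Lamp2 at -0.31 ± 0.09, Lipa at -0.32 ± 0.12, Asah1 at -0.27 ± 0.10, Ids at -0.23 ± 0.10, Lamp1 at -0.20 ± 0.09 and Atp6ap2 at -0.18 ± 0.08 (log2 fold change and SE, edgeR). None of the 6 passed the FDR, the lowest being 0.157 for Lamp2. For Lamp2, Asah1, Ids, Lamp1 and Atp6ap2, Fpr2KO 2 was the highest library of its group. Leaving it out thus lowers their Fpr2KO mean by construction. Leaving out any other library gave 0 or 1 such member. Over all genes, 26 passed the FDR without this library and 10 with it.

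A further 91 lysosomal genes that are no members served to set the 49 in context, of which 87 were tested. At an FDR of 0.05, 0 were higher and 1 was lower in Fpr2KO (1.15%), against 0.00682% and 0.0614% of all genes. At an unadjusted p under 0.05, 4 were higher and 4 were lower, 4.6% in each direction, near the 4.88% and 4.92% of all genes. The estimate was lower in Fpr2KO for 48 of 87 (55.2%), against 46.8% of all genes. Their median log2 fold change was -0.02, and the interval lay within 1.5-fold for 78 of 87 (89.7%), against 67.5% of all genes. The gene that passed was Gpr137b, a multi-span protein of the lysosomal membrane at chr13:13357620-13394014 on the minus strand in GRCm38. It had 46.8, 57.0, 52.3, 47.0 and 55.9 CPM in Fpr2KO, against 92.7, 108, 98.6, 79.2 and 78.6 CPM in WT. The groups did not overlap, and the log2 fold change was -0.82 ± 0.10 (SE; FDR 0.00221, edgeR). Since 36.4% of its 31-base sequences also occur in Gpr137b-ps and the handling of reads with several matches is not stated in these sources, its count is uncertain to that extent.

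**Figure D5:**
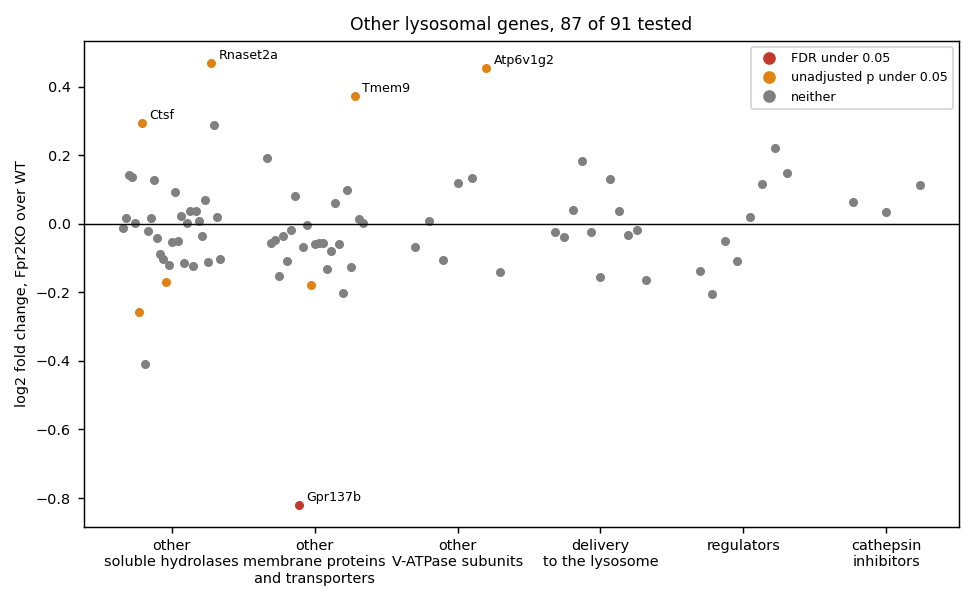
Log2 fold change, Fpr2KO over WT (y axis), of the 87 other lysosomal genes tested, in columns by list, 1 point per gene, coloured by the edgeR test. Gpr137b lies alone at -0.82, and the other genes named in the plot have an unadjusted p under 0.05 only.

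Among the other soluble hydrolases, Rnaset2a, an acid ribonuclease, and Ctsf, a cysteine protease, had the smallest p-values, with log2 fold changes of 0.47 ± 0.19 and 0.30 ± 0.12 (SE; FDR 0.443 and 0.461, edgeR). Rnaset2a shares 86.1% of its 31-base sequences with Rnaset2b. Among the other membrane proteins, Tmem9 followed Gpr137b at 0.37 ± 0.15 (SE; FDR 0.451, edgeR).

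Of the 11 other V-ATPase subunits 7 were tested. Atp6v1g2, a G subunit known mainly from neurons, had 4.36, 3.52, 4.10, 4.97 and 5.49 CPM in Fpr2KO, against 3.44, 3.35, 3.40, 3.31 and 2.90 CPM in WT. Every Fpr2KO library lay above every WT library at this low level, and the log2 fold change was 0.46 ± 0.16 (SE; FDR 0.382, edgeR). Such a separation was found for 1 of the 87 other lysosomal genes (1.15%), against 0.825% of all genes. Its counterpart of most tissues, Atp6v1g1, was at 0.13. Tcirg1, the a3 subunit prominent in osteoclasts and macrophages, had 205, 174, 211, 186 and 212 CPM in Fpr2KO, against 210.2, 216, 248, 218 and 195 CPM in WT, with a log2 fold change of -0.14 ± 0.09 (SE; FDR 0.621, edgeR). Atp6v0a2, Atp6v0e, Atp6v1e1 and Atp6v1f were at -0.07, 0.008, -0.11 and 0.12. The alternative subunits Atp6v0a4, Atp6v0e2 and Atp6v1c2 had 3, 4 and 4 reads in all in Fpr2KO, against 0, 13 and 5 reads in WT. Atp6v1b1, the B subunit of kidney, had 0 reads in both genotypes, which allows up to 3 reads in each. Nearly all reads of these alternative pairs thus fell on Atp6v1b2, Atp6v1c1 and Atp6v0d1, while 3 a subunits were present. Tcirg1, Atp6v0a2 and Atp6v0a1 had 42.9, 14.5 and 11.4 CPM per kb in Fpr2KO, against 47.3, 15.2 and 11.0 CPM per kb in WT.

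Of the 8 regulators of lysosomal genes 4 had a lower and 4 a higher estimate, and none had an unadjusted p under 0.05. Tfeb had 77.1, 59.8, 76.7, 85.4 and 88.4 CPM in Fpr2KO, against 70.9, 68.6, 73.6, 75.5 and 69.3 CPM in WT. The WT values lay within the spread of the Fpr2KO values, and the log2 fold change was 0.11 ± 0.10 (SE; FDR 0.709, edgeR). The related factors Tfe3, Tfec and Mitf were at 0.02, 0.22 and -0.11. Zkscan3, described as a repressor of lysosomal genes, was at 0.15 ± 0.07, and Flcn, which with Fnip1 and Fnip2 acts on the Rag GTPases that hold TFEB in the cytosol, was at -0.14 ± 0.08 (SE; FDR 0.535 and 0.573, edgeR). Fnip1 and Fnip2 were at -0.21 and -0.05. Of the genes of delivery to the lysosome, Gga2, an adaptor of the mannose 6-phosphate receptors, and Sort1, a sorting receptor, had the smallest p-values, at 0.18 ± 0.11 and -0.17 ± 0.10 (SE; FDR 0.605 and 0.635, edgeR). The cathepsin inhibitors Cstb and Cst3 were at 0.11 and 0.06.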

How the data were processed

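The authors deposited raw counts, whole numbers of reads per Ensembl gene, for 10 libraries; per the submitters' processing notes, HTSeq 0.10.0 and FastQC 0.10.1 were used with builds mm10 and GRCm38. The aligner, strand setting, handling of multiply mapped reads and annotation release were not given in the sources used here. Symbols, coordinates and lengths came from GENCODE M21, which matched 52133 of 55414 identifiers. Counts were fitted in R 4.3.3 with edgeR 4.0.16 (filterByExpr, TMM, robust quasi-likelihood, two-sided, no covariate), and p-values were adjusted over the 14669 genes tested. The SE was the log2 fold change divided by the square root of F. Variation between the libraries of a group (common BCV of edgeR) came to 0.179. CPM used TMM-scaled library sizes, with a prior count of 2 for log2 values. Genes sharing sequence were found by 31-base matches between transcripts. The fit was tested on simulated counts. Values in every library were given for the 14 members with the smallest p, the 6 with the highest and the 4 with the lowest CPM per kb in WT; of the other lists, the 2 smallest p-values, all alternative pump subunits and all regulators were named, and further genes were named after their values were seen. The members and lists were chosen with earlier results of these data known. All 20 pairs of libraries within a group differed by more than sampling noise (chi-square per degree of freedom 12.4 to 68.2). Alternatives were other scaling, no filter, DESeq2 1.42.0, a replicate block, and leaving out each library; GC-content offsets in 20 bins and lengths of principal transcripts were added after seeing the data.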

Additional observations from a re-analysis of the deposited data

Results flagged for a closer look

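For 6 of the 96 sets of 5 libraries examined (48 members in each genotype), the highest or lowest library stood far from the other 4. Chance gives about 1 in 20 such sets. Ctsa, a serine carboxypeptidase, had 450.2 CPM in Fpr2KO 5, against 379 to 399 CPM in the other Fpr2KO libraries. Lgmn, the asparaginyl endopeptidase, had 427 CPM in Fpr2KO 4, against 473 to 490 CPM in the others of its group. Fuca1, alpha-fucosidase, had 107 CPM in Fpr2KO 2, against 124 to 129 CPM. In WT, Ids, the iduronate sulfatase, had 133 CPM in WT 2, against 99.99 to 109 CPM. Naglu, which acts on heparan sulfate, had 36.7 CPM in WT 4, against 29.6 to 31.6 CPM, and Atp6ap1, an accessory subunit of the V-ATPase, had 219 CPM in WT 3, against 196 to 199 CPM.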

How the results depend on the processing

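With 10 genes in all past the FDR, 1 of them higher, the count was 62 without the filter on low counts (26 higher), 185 with DESeq2 (89 higher) and 64 with the replicate block (13 higher). It ran from 8 to 51 when 1 library was left out, with 26 without Fpr2KO 2, 26 without WT 4 and 51 without WT 5. Lysosomal members past the FDR were 0 in every setting run. Members lower at an unadjusted p under 0.05, 1 in the report, were 0 with upper-quartile scaling, 3 (6.25%) with the replicate block (Asah1, Lipa and Lamp2), against 5.56% of all genes, and 0 to 6 with 1 library left out, against 3.25 to 8.14% of all genes. Replicate numbers are shared by the groups but showed no uniform pairing: same-numbered libraries correlated at -0.10, 0.29, -0.10, 0.25 and -0.24 in their deviations. The same-numbered WT library was the best match for Fpr2KO 2 and Fpr2KO 4 only. Of 352 log2 fold changes over 16 alternatives, 347 kept direction and call, with a lowest FDR of 0.157 (edgeR). These were of the 22 tested members whose values in every library were given, not of all members. The 5 of them that turned were near 0 and came from leaving out 1 library: over these settings Ctsb ran from -0.11 to 0.016, Ctsd from -0.13 to 0.018, Ctsz from -0.00018 to 0.12 and Gla from -0.37 to 0.0028. Some members outside these 22 turned as well, among them Sgsh, from -0.13 to 0.086, and Tpp1, from -0.11 to 0.044. Naglu and Gaa turned with the GC-content offsets, to -0.057 and -0.031. The cause was not tested. The members' median ran from -0.08 to -0.02, and scaling moved the median of all genes within 0.00 to 0.03. Gpr137b, outside the members, passed the FDR in all 17 settings (edgeR or DESeq2), at -0.88 to -0.75 with a highest FDR of 0.0147. Per kb of principal transcript, Ctsb, Manba, Smpd1 and Atp6v1h stood at 584, 10.2, 8.92 and 34.6 CPM per kb in WT. Depth limits Atp6v0d2 and the 4 pump subunits left out of the test.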
